A study of Mus musculus with 2 samples.

Results

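The genes by which retinal pigment epithelium (RPE) cells recognise and engulf shed photoreceptor outer segments were examined in single murine RPE cells. They were chosen by gene symbol and comprise 10 of the 27998 genes in the deposited matrices: the receptor tyrosine kinases *Mertk*, *Tyro3* and *Axl*, the ligands *Gas6*, *Pros1* and *Mfge8*, the integrin subunits *Itgav* and *Itgb5*, the scavenger receptor *Cd36* and the kinase *Ptk2*. All 10 were found under a single gene identifier. Cells came from 2 male C57BL/6J mice, R1 and R2, aged postnatal day 36 (4 to 5 weeks in the labels), for which the labels name no transgene and no treatment, so that all groups below share genotype, sex and age. For each mouse the cells of its eyes were combined into 1 library, sorted as calcein-positive and DAPI-negative, and sequenced in droplets, where each unique molecular identifier (UMI) marks 1 captured transcript. R1 held 2844 cells with 26034378 UMIs and R2 held 2994 cells with 29732969 UMIs. After removal of low-quality cells and of the cells with the highest doublet score, 2671 and 2847 cells remained.

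Cells were grouped by transthyretin (*Ttr*), a very abundant RPE transcript, into Ttr-high cells (at least 5% of UMIs) and Ttr-low cells (under 3%). R1 gave 2612 Ttr-high and 59 Ttr-low cells, and R2 gave 2828 and 19. No kept cell lay between the limits, as the highest Ttr-low cell had 2.66% in R1 and 0.755% in R2 and the lowest Ttr-high cell 5.18% and 5.14%. Every Ttr-high cell held at least 3 of 8 RPE markers (*Rpe65*, *Rlbp1*, *Rgr*, *Rdh5*, *Lrat*, *Rrh*, *Best1* and *Stra6*), whose summed level was 399.5 UMIs per 10000 in R1 and 450.5 in R2, although *Best1* itself had only 7 and 11 UMIs. Ttr-low cells are a range of *Ttr* and not a cell type. They were shallower, with a median of 3200 UMIs per cell (R1) and 3836 (R2), whereas Ttr-high cells had medians of 8892 and 8344. The mice shared 12 cell barcodes, of which 0 belonged to Ttr-low cells of R1.

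As background, photoreceptors shed the tips of their outer segments every day, and the RPE binds and ingests them. The integrin αvβ5, made of the products of *Itgav* and *Itgb5*, tethers the shed material through the bridging protein MFG-E8 (*Mfge8*) and signals through focal adhesion kinase (*Ptk2*). Ingestion then depends on the receptor tyrosine kinase MERTK, a member of the TAM family with TYRO3 and AXL, whose ligands GAS6 and protein S (*Pros1*) bridge the receptors to exposed phosphatidylserine. CD36 is a scavenger receptor that binds oxidised lipids.

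The TAM receptors fell into a pair that was readily detected in Ttr-high cells and another gene that was barely present. *Mertk* (chr2:128698956-128802894, plus strand) had 1389 UMIs in R1 and 1540 in R2, or 0.556 (95% Poisson interval 0.528 to 0.586) and 0.535 (0.509 to 0.562) UMIs per 10000. These levels count captured transcripts and not fragments, so they are not scaled by gene length. How well each gene was captured was not measured. Ranks of different genes are therefore ranks of counted UMIs and may differ from ranks of transcripts in the cell. *Tyro3* (chr2:119797733-119818104, plus strand) had 1431 and 1156 UMIs, or 0.573 (0.544 to 0.604) and 0.402 (0.379 to 0.425) per 10000. *Tyro3* was thus level with *Mertk* in R1 and below it in R2. *Axl* (chr7:25757273-25788705, minus strand) had 14 UMIs in 12 cells in R1 and 9 UMIs in 6 cells in R2, or 0.00561 and 0.00313 per 10000. *Dcn*, a fibroblast gene that RPE cells should lack, had a UMI in 0.766% of Ttr-high cells in R1 and 2.12% in R2. The *Axl* shares, 0.459% and 0.212%, were below that of *Dcn* in both mice and are read as background. Intervals cover counting error only.

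The 250 bases upstream of the RefSeq start of each TAM gene (GRCm38) are shown because these 3 related receptors had opposite levels in the cell groups compared here. They lie at chr2:128698665-128698914 (plus strand) for *Mertk*, chr2:119799264-119799513 (plus) for *Tyro3* and chr7:25788734-25788983 (minus) for *Axl*, and capitals mark GGGCGG or its complement CCGCCC. The *Tyro3* window overlaps exons of noncoding *Tyro3* transcripts.
Mertk: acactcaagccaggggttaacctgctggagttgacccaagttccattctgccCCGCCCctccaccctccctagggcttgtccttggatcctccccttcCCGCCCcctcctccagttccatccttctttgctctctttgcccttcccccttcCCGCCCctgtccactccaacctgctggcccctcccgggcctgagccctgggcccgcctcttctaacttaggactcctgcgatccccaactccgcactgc
Tyro3: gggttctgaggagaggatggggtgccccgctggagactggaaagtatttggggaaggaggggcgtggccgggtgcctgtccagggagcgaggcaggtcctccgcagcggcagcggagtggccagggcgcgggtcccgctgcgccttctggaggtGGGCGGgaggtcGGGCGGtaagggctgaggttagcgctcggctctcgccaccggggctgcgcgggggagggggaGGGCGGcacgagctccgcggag
Axl: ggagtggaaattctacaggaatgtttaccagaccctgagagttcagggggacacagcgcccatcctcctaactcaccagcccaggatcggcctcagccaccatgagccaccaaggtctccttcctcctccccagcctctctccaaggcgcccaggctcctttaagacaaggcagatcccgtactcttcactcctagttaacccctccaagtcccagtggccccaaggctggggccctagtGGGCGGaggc
The motif occurred 3 times upstream of *Mertk*, 3 times upstream of *Tyro3* and 1 time upstream of *Axl*. In the other windows listed it occurred 5 times for *Pros1*, 4 for *Gas6*, 4 for *Mfge8*, 3 for *Itgb5*, 2 for *Cd36* and 0 for *Itgav*. It was found in 32.7% of 32851 RefSeq promoter windows of this length on either strand. Other motifs were searched on both strands with overlaps allowed. TATAAA was in 12.4% of all windows. The motif CATGTG was in 12.3% of them. The motif TAATCC was in 6.25%. All 3 were in 0 of the 9 windows listed for these genes (none was listed for *Ptk2*). Such matches are descriptions of the sequence only.

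Of the ligands, *Gas6* (chr8:13465374-13494490, minus strand) was the most abundant in Ttr-high cells, with 2369 and 2403 UMIs or 0.949 (0.911 to 0.988) and 0.835 (0.802 to 0.869) per 10000. *Mfge8* (chr7:79133768-79149060, minus strand) was lower, with 393 and 482 UMIs or 0.157 (0.142 to 0.174) and 0.167 (0.153 to 0.183) per 10000. *Pros1* (chr16:62854307-62929346, plus strand) had 10 UMIs in each mouse, 0.00401 and 0.00347 per 10000, in 0.306% and 0.248% of cells, again below the *Dcn* shares. *Gas6* was thus above background in these cells and *Pros1* was not. The 3′ end of *Gas6* overlaps *Tmem255b* on the opposite strand, and the sources used here do not state whether counting used strand.

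The integrin subunits differed in counted UMIs. *Itgav* (chr2:83724397-83806916, plus strand) led all 10 genes with 7200 and 8183 UMIs, or 2.88 (2.82 to 2.95) and 2.84 (2.78 to 2.91) per 10000. It ranked 417th of 15631 genes detected in R1 and 421st of 15403 in R2. *Itgb5* (chr16:33829665-33949338, plus strand) had 1980 and 1958 UMIs, or 0.793 (0.759 to 0.829) and 0.680 (0.650 to 0.711) per 10000. *Ptk2* (chr15:73205102-73423280, minus strand) had 504 and 430 UMIs, or 0.202 (0.185 to 0.220) and 0.149 (0.136 to 0.164) per 10000. *Cd36* (chr5:17781690-17888801, minus strand) had 1 UMI among 24964815 in R1 and 0 among 28782622 in R2, which allows a level of up to 0.00104 per 10000 in R2. The order in R1 was *Itgav*, *Gas6*, *Itgb5*, *Tyro3*, *Mertk*, *Ptk2*, *Mfge8*, *Axl*, *Pros1* and *Cd36*. In R2 *Mertk* stood above *Tyro3* and *Mfge8* above *Ptk2*. The intervals of *Tyro3* and *Mertk* overlapped in R1, those of *Mfge8* and *Ptk2* in R2, and those of *Axl* and *Pros1* in both mice.

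**Figure D1:**
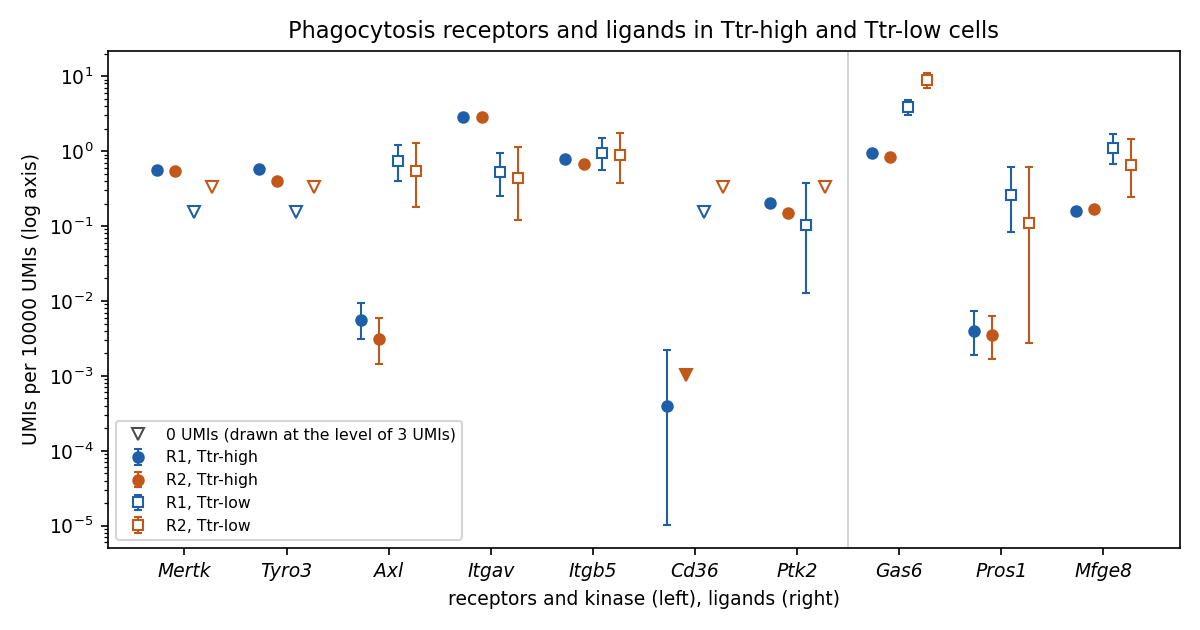
UMIs per 10000 UMIs (log axis) of the 10 genes in Ttr-high cells (filled circles) and Ttr-low cells (open squares) of R1 (blue) and R2 (orange), with 95% Poisson intervals. Triangles mark genes with 0 UMIs, drawn at the level of 3 UMIs. *Mertk* and *Tyro3* have 0 UMIs in Ttr-low cells of both mice, *Itgav* is lower there, and *Axl* and *Gas6* are higher.

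Differences between the mice were small for most genes. The R2 level was 0.986 times the R1 level for *Itgav* (95% interval 0.955 to 1.02) and 0.962 times for *Mertk* (0.894 to 1.03), and both intervals include 1. *Tyro3* was lower in R2, at 0.701 times the R1 level (0.648 to 0.758), and *Ptk2* at 0.740 times (0.649 to 0.843). *Gas6* at 0.880 times (0.831 to 0.932) and *Itgb5* at 0.858 times (0.805 to 0.913) also had intervals below 1. *Mfge8* was at 1.06 times (0.929 to 1.22). Of 6490 genes with a mean of at least 0.1 UMI per cell in both mice, 3.05% differed as much as *Tyro3* or more. The share was 5.79% for *Ptk2*, 28.7% for *Itgb5* and 36.8% for *Gas6*. With 1 library per mouse these differences have no replicate check.

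The share of cells in which a gene was found followed its level and the depth of the cell. At least 1 *Itgav* UMI was present in 75.6% of Ttr-high cells in R1 and 70.3% in R2. After each cell was thinned to 2000 UMIs, a depth that all cells reached, the shares were 37.4% (exact binomial 95% interval 35.6 to 39.3) and 35.7% (33.9 to 37.5). For *Mertk* they were 31.6% and 27.9% before thinning and 10.2% (9.05 to 11.4) and 8.80% (7.79 to 9.91) after it. *Tyro3* fell to 10.4% and 6.61% of thinned cells, *Gas6* to 15.5% and 14.9%, and *Itgb5* to 15.4% and 10.8%. *Ptk2* and *Mfge8* stayed between 2.72% and 3.48% of thinned cells. Most cells lacking a UMI of a receptor therefore cannot be called negative at this depth.

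UMIs of the receptors were unevenly spread over Ttr-high cells. *Tyro3* reached 22 UMIs in a cell of R1 while 1777 of 2612 cells had 0, and *Mertk* reached 14 UMIs in R1 and 10 in R2. *Itgav* reached 33 and 29 UMIs, and 42.9% and 40.7% of cells held 3 or more. Around a model with depth as the only source of variation, in which Poisson-like counting gives a variance near 1, the residual variance of the 7 better-detected genes lay between 1.47 and 2.42 in R1 and between 1.45 and 2.32 in R2. The median gene of these libraries had 1.68 and 1.96. *Itgav* was among the 11.9% and 11.5% most variable genes in the respective mice, whereas *Itgb5* was among the top 5.96% in R1 but the top 33.5% in R2.

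Ttr-high cells were divided into 5 groups of equal size by depth. *Itgav* was 2.31 per 10000 in the shallowest and 3.14 in the deepest group in R1, and 2.30 and 2.95 in R2. *Itgb5* went the other way in R1, from 1.08 to 0.734 with intervals apart, and less so in R2, from 0.736 to 0.666, where the intervals overlapped. *Tyro3* declined with depth in R1 from 0.724 (0.607 to 0.857) to 0.543 (0.496 to 0.593), but had 0.349 (0.268 to 0.446) and 0.424 (0.388 to 0.462) in R2. The *Tyro3* difference between the mice was thus largest in the shallowest cells. By *Ttr* share, *Itgav* was 2.99 and 3.08 per 10000 in cells with 5 to 10% *Ttr* and 2.38 and 2.43 in cells above 15%, with intervals that did not overlap in either mouse. *Ttr* is part of the total by which the levels are divided, and its share of UMIs and the other levels are therefore not independent. These cells also differed in depth. Their medians were 8720 (R1) and 12044.5 (R2) UMIs at 5 to 10% *Ttr* and 5594 and 8022 above 15%. Whether the *Itgav* difference goes with depth or with *Ttr* was not tested.

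**Figure D2:**
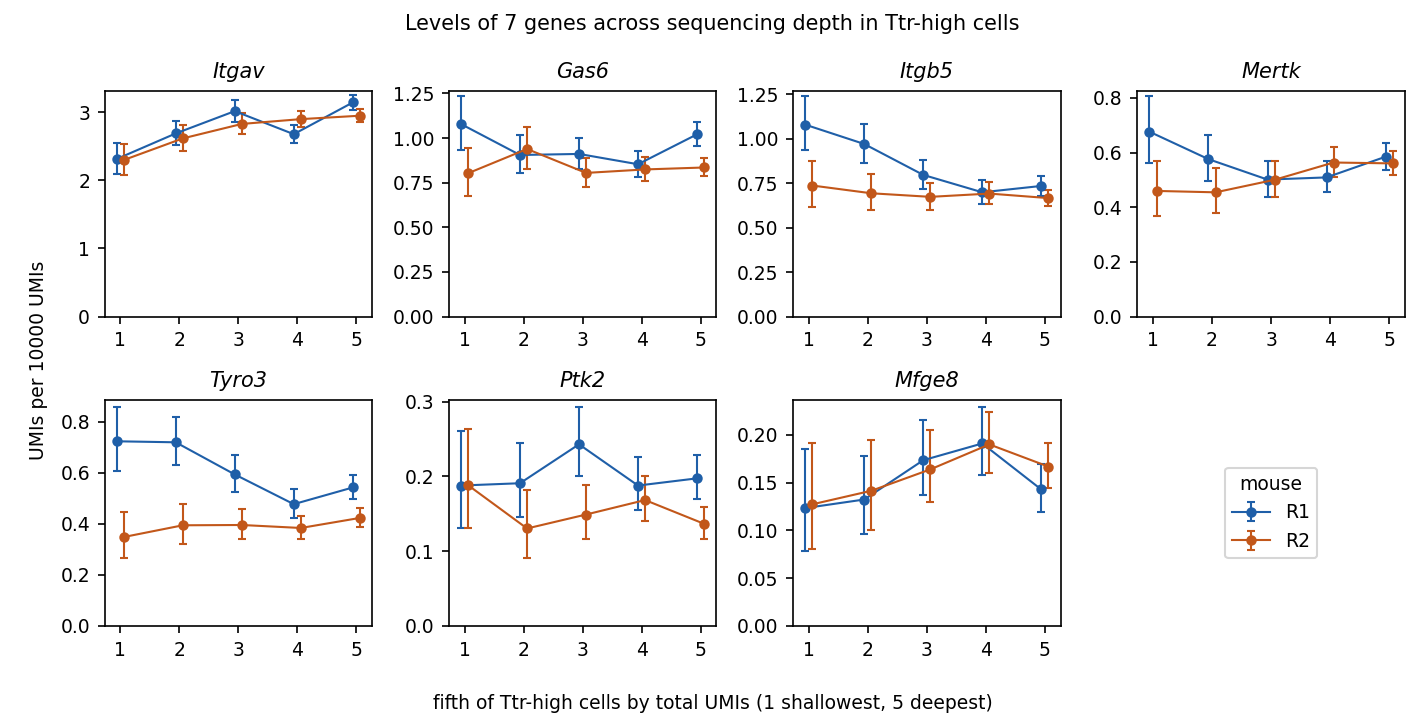
UMIs per 10000 UMIs of 7 genes (y axes start at 0) in 5 groups of Ttr-high cells by total UMIs, from the shallowest (1) to the deepest (5), in R1 (blue) and R2 (orange), with 95% Poisson intervals. *Itgav* is higher in the deepest than in the shallowest cells of both mice, and *Tyro3* is higher in R1 than in R2, most of all in the shallowest cells.

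Covariation among the genes was weak. For the 7 genes with a mean of at least 0.1 UMI per cell (*Mertk*, *Tyro3*, *Gas6*, *Mfge8*, *Itgav*, *Itgb5* and *Ptk2*), the Pearson r of depth-corrected residuals was computed over the 2612 and 2828 Ttr-high cells. The median over the 21 pairs was 0.0137 in R1 and 0.0111 in R2, and the pairs ranged from -0.0232 to 0.0516 and from -0.0422 to 0.0387. Over all 21056805 pairs of 6490 genes the 95th percentile was 0.0365 in R1 and 0.0342 in R2. Only *Mertk* with *Tyro3* (0.0464 and 0.0387) was above it in both mice. The αvβ5 subunits *Itgav* and *Itgb5* gave 0.00857 and 0.0378. The points are cells of 1 library and share depth and free RNA, and correlations of this size in sparse counts are no finding. Both integrin subunits were seen together in 34.6% of cells in R1 and 28.2% in R2, and 5.36% and 5.02% after thinning.

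**Figure D3:**
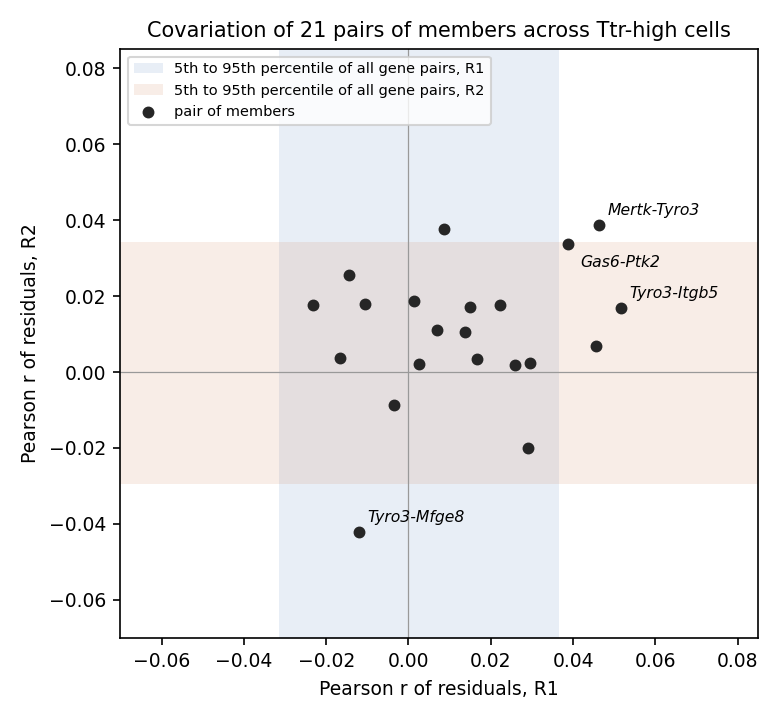
Pearson r of depth-corrected residuals between 21 pairs of the genes across Ttr-high cells of R1 (x axis) and R2 (y axis), each point being a pair. Shaded bands span the 5th to 95th percentile of all gene pairs in R1 (blue) and R2 (orange), and most pairs lie within both bands.

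The genes most like each member, ranked by the lower r of the mice over all 6490 genes, were also only weakly alike. *Itgav* was most like *Timp3*, an inhibitor of metalloproteinases made by the RPE (0.105 and 0.135), followed by *Crim1* (0.104 and 0.0951) and *Itgb8*, the β8 integrin subunit (0.0978 and 0.0937). *Itgb5* was most like the mitochondrial transcripts *mt-Cytb* (0.129 and 0.102), *mt-Nd1* and *mt-Nd4*. *mt-Cytb* was also at rank 2 for *Tyro3* (0.111 and 0.0655) and at rank 3 for *Gas6* (0.0598 and 0.0608). *Mertk* and *Tyro3* shared the noncoding RNA *Malat1* as their closest gene (0.0645 and 0.0810 for *Mertk*, 0.105 and 0.0774 for *Tyro3*). *Gas6* was closest to *Igfbp2* (0.0630 and 0.0710), *Mfge8* to *Ckmt1* (0.0531 and 0.0497) and *Ptk2* to *Huwe1* (0.0560 and 0.0539).

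The comparison of Ttr-low with Ttr-high cells asked whether the phagocytosis genes differ where *Ttr* is low. In Ttr-low cells *Mertk* and *Tyro3* were not found, *Itgav* was lower, and *Axl* and *Gas6* were higher, in both mice. UMIs were summed per mouse and group, which gave 4 libraries (192400 and 91115 UMIs for Ttr-low cells), and edgeR's quasi-likelihood test was run on them. The mouse was a blocking term, and p-values were adjusted over all tested genes by the Benjamini-Hochberg method. It called 1212 of 11553 genes (10.5%) at a false discovery rate of 0.05, 490 higher in Ttr-low cells (4.24%) and 722 lower (6.25%). Of the 10 genes, 5 were called, 2 of them higher and 3 lower, 4 were tested but not called, and *Cd36* was too rare to be tested. *Mertk* and *Tyro3* passed the filter on low counts through the Ttr-high sums alone and *Axl* and *Pros1* through the Ttr-low sums alone, so that their count is not set against the background. The scale bears on the direction of small changes. The median log2 fold change of all genes was -0.35 with TMM scaling (490 of 1212 calls higher) and 0.36 without it (1076 of 1466 higher), and -1.02 per cell (357 of 1934 higher). DESeq2 called 503 of 931 genes higher.

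Ttr-low cells differed from Ttr-high cells in many genes besides *Ttr*, and markers of other cells were among them. The 8 RPE markers summed to 35.3 and 24.4 UMIs per 10000 in Ttr-low cells of R1 and R2 (7 of 8 found, *Best1* at 0). Free RNA that accounts for all *Ttr* left in these cells would make up at most 6.60% and 3.17% of their UMIs. Free RNA at that share would give 60.4 and 14.2 *Rpe65* UMIs, where 54 and 6 were counted. For *Rgr* it would give 254 and 68.4, where 304 and 61 were counted. For *Rdh5* it would give 107 and 26.7, where 186 and 100 were counted. How much of the RPE marker level was free RNA was not tested. *Pax6*, an eye field transcription factor, was at 7.02 and 4.61 per 10000 against 0.0485 and 0.0278 in Ttr-high cells. *Dkk3* was at 15.7 and 17.3 per 10000 against 0.175 and 0.0903. It had a UMI in 91.5% and 84.2% of Ttr-low cells and in 10.8% and 5.62% of Ttr-high cells. The melanocyte list summed to 53.4 and 34.4 (5 and 2 of 6 markers) against 2.73 and 2.02 (5 of 6). Almost all of the Ttr-low sum was *Mlana*, a melanosome gene, at 52.7 and 34.0, while *Pax3* was at 0 in all 4 groups. *Sox10*, also on the list, went the other way, at 0.104 and 0 per 10000 against 0.620 and 0.571 in Ttr-high cells. Microglial markers summed to 10.1 and 13.0 (8 of 8 in each) against 1.73 (7 of 8, *Cx3cr1* at 0) and 1.24 (8 of 8). Fibroblast markers summed to 30.9 and 21.95 (6 of 6 in each) against 0.0216 (4 of 6, *Lum* and *Pdgfra* at 0) and 0.0834 (5 of 6, *Pdgfra* at 0). The median Ttr-low cell had 0 for both lists in R1 and R2. The median Ttr-high cell had 1.19 and 0.415 microglial and 0 fibroblast UMIs per 10000. Single Ttr-low cells reached 383 and 398 microglial and 775 and 398 fibroblast UMIs per 10000. Of the 59 and 19 Ttr-low cells, 6 and 3 held at least 3 markers of microglia, fibroblasts or melanocytes. The remaining 53 and 16 cells each held a UMI of *Pax6* or *Dkk3*. Endothelial markers were at 0.312 and 0.110 (3 and 1 of 6, *Pecam1*, *Cdh5* and *Cldn5* at 0 in both) against 0.171 and 0.129, and pericyte markers at 0.936 and 0.329 (4 and 2 of 5, *Pdgfrb* at 0 in both) against 0.206 and 0.211. The parts of these lists in the results below were not tested beyond the values without the marked cells. Those values leave marked cells out of the Ttr-low sums only. Marked Ttr-high cells stayed in, among them 80 in R1 and 38 in R2 with at least 3 melanocyte markers.

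No *Mertk* or *Tyro3* UMI was found in any Ttr-low cell. At the Ttr-high level, 10.7 *Mertk* UMIs would fall on the Ttr-low cells of R1 and 4.88 on those of R2, and 11.03 and 3.66 *Tyro3* UMIs. Against the floor of 3 UMIs per library, *Mertk* was at least 3.57-fold lower in R1 and at least 1.63-fold lower in R2. On that floor *Tyro3* was at least 3.68-fold lower in R1 and at least 1.22-fold lower in R2. The exact 95% intervals allow smaller differences. For the ratio to Ttr-high cells they were 0 to 0.345 and 0 to 0.758 for *Mertk*. For *Tyro3* they were 0 to 0.335 in R1 and 0 to 1.01 in R2, which still includes no difference. edgeR called both lower (adjusted p = 1.88e-05 for *Mertk* and 5.85e-05 for *Tyro3*), but each entered the test through the Ttr-high sums alone, so these calls add no support to the counts. DESeq2 called *Mertk* (adjusted p = 0.00398) but not *Tyro3* (adjusted p = 0.52). Over the 13 alternatives the adjusted p ranged from 9.17e-07 to 0.00398 for *Mertk* and from 3.44e-06 to 0.52 for *Tyro3*. With up to 3 UMIs allowed, 5.08% of Ttr-low cells in R1 and 15.8% in R2 could hold a UMI of these genes. The exact 95% upper limits of these shares were 6.06% and 17.6%.

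*Itgav* was lower in Ttr-low cells but not absent. It had 10 UMIs in 9 of 59 cells in R1 and 4 UMIs in 3 of 19 cells in R2, or 0.520 (0.249 to 0.956) and 0.439 (0.120 to 1.12) per 10000. The level was 5.55-fold lower than in Ttr-high cells in R1 (95% interval 3.02 to 11.6) and 6.48-fold lower in R2 (2.53 to 23.8), so both intervals lay clear of 1. The edgeR log2 fold change was -3.26 (SE 0.47, adjusted p = 3.77e-10). Free RNA could hold at most 3.66 of the 10 UMIs in R1 and 0.822 of the 4 in R2. Cells without marks of other types held 8 of the 10 UMIs in R1 but 1 of the 4 in R2, and without the marked cells the log2 fold change was -3.78.

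The partner subunit *Itgb5* did not pass the test. It had 18 UMIs in 9 cells and 8 UMIs in 6 cells, or 0.936 (0.555 to 1.48) and 0.878 (0.379 to 1.73) per 10000, against 0.793 and 0.680 in Ttr-high cells. The ratio was 1.18 in R1 (0.698 to 1.87) and 1.29 in R2 (0.556 to 2.55), and both intervals include 1. The edgeR log2 fold change was -0.43 (SE 0.49, adjusted p = 0.741) with TMM, 0.29 without it and -1.06 (adjusted p = 0.173) with scaling per cell. Relative to the median of all genes on these scales it was -0.08, -0.07 and -0.03. Per cell, *Itgb5* had 0.305 and 0.421 UMIs in Ttr-low cells of R1 and R2 and 0.758 and 0.692 in the deeper Ttr-high cells. A difference of the size seen for *Itgav* lies outside the interval of the *Itgb5* ratio in each mouse.

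*Axl* was the reverse of its relatives. It had 14 UMIs in 8 of 59 Ttr-low cells in R1 and 5 UMIs in 4 of 19 in R2, or 0.728 (0.398 to 1.22) and 0.549 (0.178 to 1.28) per 10000. The ratio to Ttr-high cells was 129.8 (57.3 to 294) and 175 (46.2 to 583), and the levels of the groups did not overlap. edgeR called *Axl* higher (log2 fold change 6.46, SE 1.36, adjusted p = 5.70e-05), but *Axl* entered the test through the Ttr-low sums alone, so this call adds no support to the counts. The fold is taken over Ttr-high counts read as background and is no measure of a change in expression. Of the 14 UMIs in R1, 6 were in the 3 cells with fibroblast markers and 8 in 5 of the 53 cells without such marks. In R2, 1 of the 5 UMIs was in the cell with microglial markers and 4 in 3 of the 16 unmarked cells. A single R1 cell of 5110 UMIs held 4 of the 14 UMIs, and a single R2 cell of 10880 UMIs held 2 of the 5. Without the respective cell the *Axl* levels were 0.534 in R1 and 0.374 in R2 per 10000. The level in unmarked cells was 0.472 (0.204 to 0.930) per 10000 in R1 and 0.486 (0.132 to 1.24) in R2. Without the marked Ttr-low cells the edgeR log2 fold change was 6.03 (adjusted p = 0.00171). This was the highest adjusted p of the 13 alternatives, the lowest being 3.79e-12. These calls also add no support to the counts.

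*Gas6*, the AXL ligand, was also higher in Ttr-low cells. It had 74 UMIs in 30 of 59 cells in R1 and 80 UMIs in 16 of 19 cells in R2, or 3.85 (3.02 to 4.83) and 8.78 (6.96 to 10.9) per 10000. The median Ttr-low cell had 2.51 and 6.43 per 10000, and the median Ttr-high cell 0 in both mice. The ratio to Ttr-high cells was 4.05 in R1 (3.17 to 5.11) and 10.5 in R2 (8.31 to 13.1), with intervals that did not overlap between the mice. edgeR called it higher (log2 fold change 1.97, SE 0.36, adjusted p = 1.51e-06), and it was called under each of the 13 alternatives. A single R2 cell of 13692 UMIs held 19 of the 80 UMIs, and the R2 level without that cell was 7.88 per 10000. Cells without marks of other types held 66 of the 74 UMIs in R1 and 74 of the 80 in R2.

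**Figure D4:**
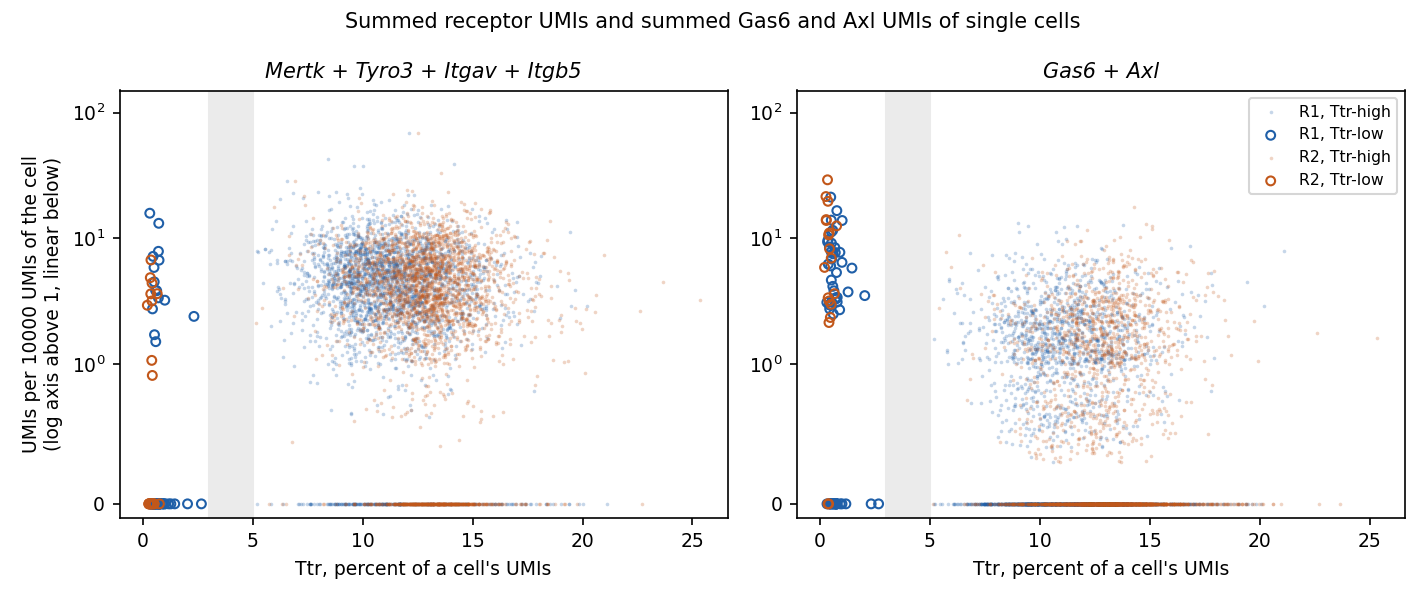
Summed UMIs of *Mertk*, *Tyro3*, *Itgav* and *Itgb5* (left) and of *Gas6* and *Axl* (right) per 10000 UMIs of each cell (y axis, logarithmic above 1 and linear below) against the *Ttr* share of its UMIs (x axis), for Ttr-high cells (dots) and Ttr-low cells (open circles) of R1 (blue) and R2 (orange). The shaded band from 3 to 5% holds no cell. At least 1 of the 4 receptor genes was found in 25.4% and 47.4% of Ttr-low cells in R1 and R2. The shares were 88.3% and 81.8% in the deeper Ttr-high cells. In Ttr-low cells only *Itgav* or *Itgb5* was found, as *Mertk* and *Tyro3* had 0 UMIs there.

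The other ligands pointed upwards without passing the test. *Mfge8* had 21 and 6 UMIs in Ttr-low cells, or 1.09 (0.676 to 1.67) and 0.659 (0.242 to 1.43) per 10000, which was 6.93 (4.24 to 10.7) and 3.93 (1.44 to 8.62) times the Ttr-high level. Its log2 fold change was 1.74 (SE 0.64, adjusted p = 0.0618 by edgeR), and it passed without TMM (adjusted p = 0.00204) and without the replicate block (adjusted p = 0.000545), the alternatives ranging up to 0.344. A single R2 cell of 10880 UMIs held 3 of the 6 *Mfge8* UMIs, and the R2 level without that cell was 0.374 per 10000. In R1 the level without the cell with most *Mfge8* UMIs was 0.951. *Pros1* had 5 UMIs in R1 and 1 in R2, a ratio of 64.9 (17.4 to 208) and 31.6 (0.728 to 222), with a log2 fold change of 4.93 (SE 1.78, adjusted p = 0.0530). It passed in 5 of the 11 alternatives that could test it, with adjusted p ranging up to 0.197. Among those 5 were DESeq2 (adjusted p = 0.0216) and no replicate block (adjusted p = 0.000158). *Pros1* entered the test through the Ttr-low sums alone, so passing adds no support to the counts. Its fold is taken over Ttr-high counts read as background and is no measure of a change in expression. Unmarked cells held 4 of the 5 UMIs in R1 and 0 of the 1 in R2. Without the cells marked for other types *Pros1* was too rare to be tested. *Ptk2* had 2 UMIs in R1 and 0 in R2, where 3.88 and 1.36 would be found at the Ttr-high level. A difference in *Ptk2* was not detectable at this depth (log2 fold change -2.13, SE 1.21, adjusted p = 0.348). *Cd36* had 0 UMIs in Ttr-low cells of both mice.

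Depths were brought closer by restricting Ttr-high cells to those under 4000 UMIs, a choice made after the data were seen, which gave medians of 2999 and 3266 UMIs. *Itgav* was called lower and *Gas6* higher here too, and edgeR also called *Mfge8* higher (log2 fold change 2.18, adjusted p = 0.0279). *Mertk* and *Tyro3* were called lower and *Axl* higher, with a smaller log2 fold change of *Axl* (4.99). *Mertk* and *Tyro3* had 0 UMIs in the Ttr-low sums, and *Axl* had entered the main test through the Ttr-low sums alone. The calls of these 3 genes therefore add no support to the counts.

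**Figure D5:**
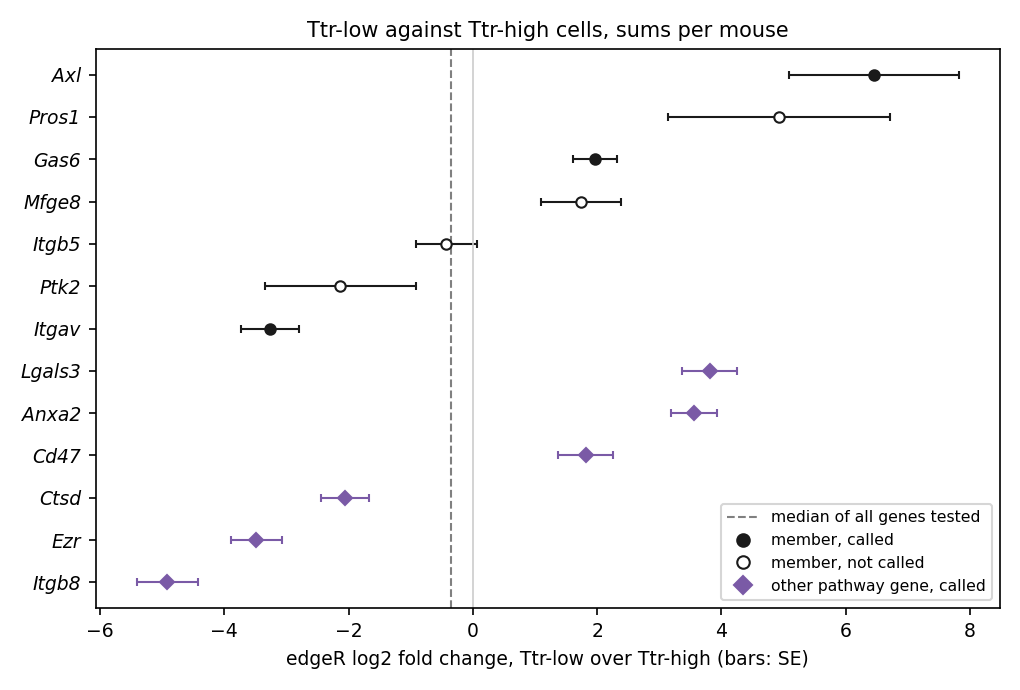
edgeR log2 fold changes of Ttr-low over Ttr-high cells (x axis, bars give the SE) for 7 of the 10 genes (black circles, filled where called) and for the 6 other pathway genes named by rule (purple diamonds). The dashed line is the median of all 11553 genes tested, at -0.35. *Mertk* and *Tyro3* are left out because their fold has no measured size, and *Cd36* was not tested.

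Other genes of the pathway were read from 4 lists. Of 51 genes, 43 were tested and 10 called, 4 higher and 6 lower, with a median log2 fold change of -0.19 against -0.35 for all genes. Over all genes 10.5% were called, 4.24% higher and 6.25% lower. Without TMM, 14 were called and 10 of these were higher, and with scaling per cell 15 were called and 2 were higher. Without the cells marked for other types, 8 of 42 tested were called and 3 of these were higher. Values of single list genes without those cells are not given here. Among ligands and bridging proteins, 2 of 3 tested rose and 0 fell (*Tulp1* was not tested), and among other receptors and partners 1 of 12 rose and 2 fell. Engulfment signalling and cytoskeleton genes had 1 of 17 higher and 3 lower, and phagosome maturation genes 0 of 11 higher and 1 lower. The medians of the lists were 3.53, -0.03, -0.57 and -0.77. The first is the value of *Tub* (SE 2.05, edgeR adjusted p = 0.367), which was not called. *Tub* had 0 UMIs in Ttr-low cells of R1 and 3 in R2, so this median is no measure of the ligands.

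By the fixed rule, the 3 largest changes among the called pathway genes in each direction are named. *Itgb8*, which pairs with the αv subunit, had 8 and 2 UMIs in Ttr-low cells of R1 and R2 against 16144 and 17837 in Ttr-high cells, or 0.416 and 0.220 against 6.47 and 6.20 per 10000. Its log2 fold change was -4.92 (SE 0.49, adjusted p = 2.20e-21 by edgeR). Free RNA could make up at most 6.60% (R1) and 3.17% (R2) of Ttr-low UMIs. How many of the few *Itgb8* UMIs in Ttr-low cells were free RNA was not tested. *Ezr*, encoding the microvillar linker ezrin, fell from 6.70 and 6.98 to 1.09 and 0.878 per 10000 (-3.48, SE 0.42, adjusted p = 7.42e-15). *Ctsd*, the lysosomal protease cathepsin D, fell from 28.8 and 30.6 to 11.9 and 11.9 per 10000 (-2.06, SE 0.38, adjusted p = 2.80e-06). In the other direction, *Lgals3*, encoding galectin-3, rose from 0.120 and 0.147 to 1.82 and 5.27 per 10000 (3.81, SE 0.45, adjusted p = 1.38e-15). *Anxa2*, encoding annexin A2, rose from 0.412 and 0.461 to 8.11 and 9.11 (3.56, SE 0.37, adjusted p = 4.27e-20). *Cd47*, a signal against engulfment, rose from 0.389 and 0.381 to 2.60 and 1.87 (1.82, SE 0.44, adjusted p = 0.000725).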

How the data were processed

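Per the labels and the methods of the study, RPE cells of 2 mice were profiled on the 10x Genomics platform, and the submitters' processing notes name bcl2fastq 2.20.0.422, Cell Ranger 1.2.0 and GRCm38. The chemistry version differs between the methods and the labels (barcodes had 14 bases). The authors deposited raw UMI counts per gene and cell, without normalization or removal of free RNA. A gene's counts in a mouse were treated as 1 sample per group of cells, since cells are not replicates.

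Cells with fewer than 500 genes or over 5% mitochondrial UMIs (4 and 58 in R1, 0 and 28 in R2) and the 4% with the highest doublet score, which counts simulated doublets near each cell, were removed (111 and 119 cells). This score stands in for the study's doublet caller. The median depth of Ttr-high cells was 8751 (R1) and 8158 (R2) UMIs before removal by this score. It was 8892 and 8344 after it, so the removal did not lower depth. Whether the removed cells were doublets was not tested. Ttr-low and Ttr-high sums of the same mouse are paired by that mouse, which was the block. edgeR 4.0.16 was used with TMM and filterByExpr, and DESeq2 1.42.0 as an alternative, in R 4.3.3 (SE from the quasi-F statistic). Other values were computed in Python 3.11.15 with scipy 1.17.1. Poisson, binomial and ratio intervals are exact at 95% and cover counting error only. Where 0 UMIs were counted, up to 3 were allowed. Residuals came from a negative binomial model with theta 100 and depth as offset. Depth ranged from 2145 to 34617 UMIs per cell. Scripts were tested on simulated data. Alternatives changed the tool, the scaling, the filters, the *Ttr* limits, the block and the cells included, and 1 of them (Ttr-high cells under 4000 UMIs) was chosen after seeing the data.

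The genes named are all 10 genes of the set and, for the 7 better-detected ones, up to 3 of the most alike genes. From 4 pathway lists, the 3 largest fold changes in each direction are named, among called genes with the same direction in both mice. Genes and lists were chosen with earlier results of these data known. Coordinates are from GENCODE M21 (GRCm38), and promoter windows from RefSeq (GRCm38.p6), which listed 9 of the 10 genes.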

Additional observations from a re-analysis of the deposited data

How the results depend on the processing

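The number of genes called was within 1.5 times of 1212 in 11 of 13 alternatives (another tool or scaling, filters on genes and cells, other *Ttr* limits, leaving out marked cells, subtracting free RNA and, chosen after seeing the data, shallow Ttr-high cells). It rose to 1934 with scaling per cell and to 2168 with no replicate block. Between 5 and 7 of the 10 genes were called in every alternative. *Gas6* and *Itgav* were called in all 13 alternatives with the same direction. So were *Mertk* and *Axl*, and *Tyro3* in all but DESeq2, but these 3 genes reached the test through the group where they are high, and their repeated calls are no independent support. *Itgb5* changed sign without TMM (log2 fold change 0.29), which moves all genes, and was called in 0 alternatives, as was *Ptk2* in the 12 that tested it. The no replicate block fit added *Mfge8* and *Pros1* to the calls and changed no other call among the 10 genes.

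In Ttr-high cells, 31 of 40 alternative levels stayed within the spread of the mice, not counting the levels of single mice. Of the 9 that moved, 6 came from leaving *Ttr* out of the totals. Shares of cells moved in 19 of 20 cases with thinning to 3000 UMIs or none. The median correlation between the genes was 0.0124, with 0.0239 from log-transformed levels and 0.00508 from thinned counts. Leaving out either mouse leaves 1 sum per group, so no test was possible, and the ratio of each mouse stands in the results. Ttr-low sums limit what can be seen, since 3 UMIs correspond to 0.156 per 10000 in R1 and 0.329 in R2. A level below these cannot be told from absence.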
